A study of Mus musculus with 11 samples.

Results

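Kupffer cells (KCs) of mice in which Zeb2 had been deleted were compared with KCs of mice that kept the gene, in droplet single-cell RNA sequencing that counts the 3′ ends of transcripts. A cell was taken as a KC when its barcode held at least 1 unique molecular identifier (UMI) of Clec4f and at least 5 UMIs of C1qa, C1qb and C1qc together. This rule took 4510 of the 4717 barcodes of the Zeb2KO library and 4555 of the 4645 barcodes of the WT library, so 9065 of 9362 barcodes in all. The series as a whole held 51712 barcodes in 11 libraries of brain, colon, liver, lung and spleen macrophages (macs), and outside the liver 1 WT colonic cell met the rule.

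All mice of this comparison had Zeb2 alleles flanked by loxP sites (Zeb2fl/fl); the WT mice were CRE-negative and the Zeb2KO mice carried a CRE transgene. On the driver the sources differ, since the label of the Zeb2KO library gives Fcgr1-cre and the methods give Clec4f-cre for KCs, and it was not settled here. A second WT library came from CRE-negative Nr1h3fl/fl mice, of which 3841 of 3869 barcodes met the rule, and it shows how far a pair of KC libraries without Zeb2 deletion differed. By the methods, the mice were C57Bl/6 of both sexes and 6 to 8 weeks old, the Zeb2fl/fl controls were littermates, and KCs were sorted as live CD45+CD64+F4/80+Clec4F+ cells. The study describes Clec4f-cre as also active in a minor B cell population, and KCs of the CRE mice as a mixture in which some cells had recombined only 1 allele. Neither the labels nor the methods say how many animals were pooled in a library.

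ZEB2 is a zinc-finger transcription factor that binds E-box sequences and can silence genes such as that of E-cadherin when epithelial cells turn mesenchymal, and it also acts in the development of several blood lineages. KCs are the resident macs of the liver sinusoids, where they clear particles, apoptotic cells and haemoglobin from the blood and secrete complement components. In the mouse they are recognised by the C-type lectin Clec4f, the phosphatidylserine receptor Timd4 and the secreted protein Cd5l.

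There was 1 library for each group, so no test was made and every difference lacks a replicate check. UMIs were summed over the KCs of a library and scaled to a total of 1000000 per library, the unit called CPM, from 29255401 UMIs in Zeb2KO, 26486296 in Zeb2fl/fl WT and 19626100 in Nr1h3fl/fl WT KCs. The median KC held 5777, 5159 and 4317 UMIs in the same order. Intervals in brackets are exact Poisson 95% intervals of a level, or exact binomial ones of a share, and cover counting error only. A log2 ratio compares CPM after 1 CPM was added to both sides. Genes that reached 20 CPM in either library of a pair were considered. A considered gene is called higher or lower in Zeb2KO when it differed 2-fold or more from Zeb2fl/fl WT, that is by a log2 ratio of 1 or beyond. Where 3 levels are given without names, they follow the order Zeb2KO, Zeb2fl/fl WT, Nr1h3fl/fl WT.

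The targeted gene was examined first. Zeb2 (chromosome 2, 44983632 to 45117395, minus strand, GRCm38/mm10) stood at 755 CPM (745 to 765) in Zeb2KO, 389 CPM (381 to 397) in Zeb2fl/fl WT and 517 CPM (507 to 527) in Nr1h3fl/fl WT KCs. Its level was therefore not lower in the Zeb2KO library. A transcript of the recombined allele keeps the 3′ end that is counted, so this level does not check the deletion.

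The genes that chose the cells are given as a description. The median KC held 11 Clec4f UMIs in Zeb2KO, 28 in Zeb2fl/fl WT and 17 in Nr1h3fl/fl WT, and 110, 114 and 61 UMIs of the 3 C1q genes. Just inside the Clec4f limit, 182, 39 and 19 KCs had a single Clec4f UMI, and just outside it 107, 13 and 5 barcodes met the C1q limit but had no Clec4f UMI. At the C1q limit, 15, 12 and 5 KCs had 5 C1q UMIs, and 16, 9 and 7 barcodes had 4. The Zeb2KO library thus lost more barcodes to the Clec4f limit than either WT library. With no limit on Clec4f, 258 genes were called in place of 259.

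The label of the cells was checked against markers. Of the macrophage markers, Adgre1 (F4/80) stood at 707, 766 and 958 CPM, Fcgr1 (CD64) at 313, 322 and 245 CPM and Mertk at 174, 180.2 and 266 CPM. All 6 defining macrophage markers, Csf1r, Cd68 and Aif1 among them, stayed within 2-fold between Zeb2KO and Zeb2fl/fl WT. The cells were sorted on F4/80 and CD64 protein, so the levels of Adgre1 and Fcgr1 are not independent of the sort. Of the 3 KC markers, Cd5l stood at 2800 CPM in Zeb2KO against 5141 CPM in Zeb2fl/fl WT and Timd4 at 125 against 544 CPM, so both were present and lower in Zeb2KO, Timd4 past 2-fold.

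The sorts also held RNA of other cells. Cells with at least 3 UMIs of 5 liver endothelial markers made up 16.2% of Zeb2KO, 10.2% of Zeb2fl/fl WT and 6.79% of Nr1h3fl/fl WT KCs. Cells with at least 2 UMIs of 5 B cell markers made up 6.34%, 5.12% and 3.28%. Cells with at least 5 UMIs of Saa3, Slpi, Fn1, Prg4 and Alox15 together numbered 38, 70 and 0. Barcodes can hold a KC with another cell or with free RNA, and no doublets were removed. The calls and log2 ratios of Zeb2KO over Zeb2fl/fl WT were therefore also computed without all cells with such UMIs or with T, NK or neutrophil UMIs. This filter was chosen after seeing the data and removed 1320 Zeb2KO, 874 Zeb2fl/fl WT and 523 Nr1h3fl/fl WT KCs. Shares of cells, other tissues, calls over Nr1h3fl/fl WT and calls between the WT libraries were not recomputed with it. Zeb2KO and Zeb2fl/fl WT KCs shared 34 cell barcodes.

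The first comparison asks which genes differ in KCs with Zeb2 deletion. Of 5493 genes of at least 20 CPM, 259 (4.72%) were called, 200 (3.64%) higher and 59 (1.07%) lower in Zeb2KO. The median log2 ratio of all 5493 genes was 0.03. By the same rule, 82 of 5587 genes (1.47%) were called between the WT libraries, 31 (0.555%) higher and 51 (0.913%) lower in Nr1h3fl/fl WT. More genes were thus higher in Zeb2KO than between the WT libraries in either direction. The share lower in Zeb2KO, 1.07%, was near the 0.913% lower between the WT libraries. Among the 59 lower genes were Clec4f, which chose the cells, and 4 haemoglobin genes. Slpi, Fn1, Saa3 and Alox15, whose direction turned with the control, were also among them. The same Zeb2KO library over Nr1h3fl/fl WT gave 465 of 5818 genes (7.99%), 272 (4.68%) higher and 193 (3.32%) lower, so the choice of control moved the number of lower genes most. Without cells with UMIs of other cell types, 255 of 5405 genes (4.72%) were called over Zeb2fl/fl WT, 187 (3.46%) higher and 68 (1.26%) lower. Later counts made with that filter are to be set beside these shares.

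**Figure D1:**
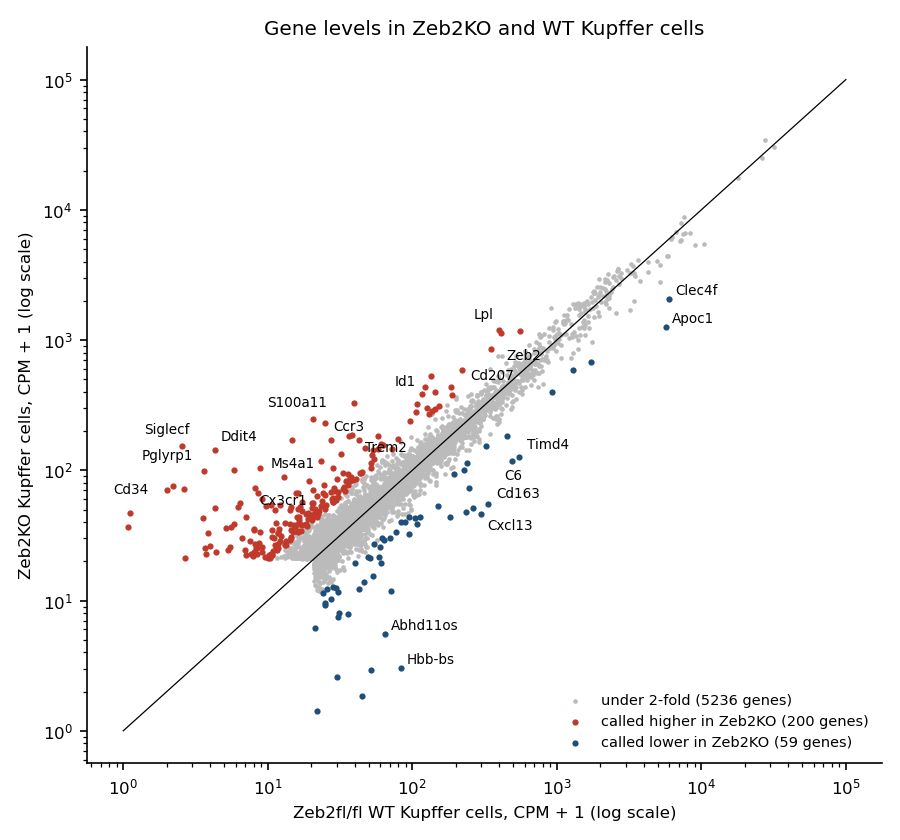
Levels of 5493 genes in Zeb2fl/fl WT KCs (x axis, CPM + 1, log scale) and Zeb2KO KCs (y axis, CPM + 1, log scale), 1 point per gene, 1 library per axis. Red points are the 200 genes called higher and blue points the 59 called lower in Zeb2KO; the labelled genes with the fewest WT counts, such as Siglecf and Cd34, lie far above the diagonal, while the lower genes include the abundant Apoc1. Clec4f is labelled as a gene that chose the cells.

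The leading genes higher in Zeb2KO were, in order of their log2 ratio, Siglecf, Cd34, Plp2, Ddit4, Gm3336, Pglyrp1, Rnase4, S100a11, Ang, Ms4a1, Hist1h2ap, Ccr3, Cx3cr1, Spint2 and Serpinb6b. They had to reach 50 CPM and to be called over both WT libraries. Siglecf (protein coding, chromosome 7, 43351341 to 43359531, plus strand) encodes a sialic acid-binding lectin that marks eosinophils and alveolar macs. It stood at 152 CPM (147 to 156) in Zeb2KO, 1.55 CPM (1.11 to 2.10) in Zeb2fl/fl WT and 1.17 CPM (0.743 to 1.76) in Nr1h3fl/fl WT KCs, and its log2 ratio over Zeb2fl/fl WT was 5.91. The WT libraries lay close together and far below Zeb2KO.

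Cd34, a sialomucin of progenitors and endothelium, stood at 70.1, 1.02 and 0.357 CPM, a log2 ratio of 5.14 over Zeb2fl/fl WT. Ccr3, the eotaxin receptor, stood at 231, 23.8 and 36.4 CPM, a ratio of 3.22. Ms4a1, which encodes the B cell antigen CD20, stood at 103 CPM (99.7 to 107), 7.89 CPM (6.86 to 9.04) and 2.24 CPM (1.63 to 3.01), a ratio of 3.55. For all 3 genes both WT libraries lay far below Zeb2KO, and of the 3 Ccr3 had the highest WT levels.

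Ddit4, an inhibitor of mTORC1 signalling that is induced by stress, stood at 143, 3.29 and 1.99 CPM, a log2 ratio of 5.07. Pglyrp1, a secreted peptidoglycan-binding antibacterial protein, stood at 98.6, 2.64 and 0.561 CPM, a ratio of 4.77. S100a11, a calcium-binding protein, stood at 246, 19.7 and 9.43 CPM, a ratio of 3.58. Without cells with UMIs of other cell types, the ratio was 4.55 for S100a11 and 6.54 for Pglyrp1, which then had 1 UMI in Zeb2fl/fl WT. The RNase genes Rnase4 and Ang overlap on chromosome 14, so the counting may have split their reads, and their ratios of 4.10 and 3.57 are uncertain. Hist1h2ap is 1 of many near-identical histone genes, and Plp2, Cd34 and Ms4a1 overlap genes of the opposite strand, so their values are uncertain too.

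Il1r2, the decoy receptor for interleukin-1, did not reach the level asked of leading genes. It stood at 36.0 CPM (33.8 to 38.2) in Zeb2KO, and 2 UMIs were counted in Zeb2fl/fl WT (0.0755 CPM, 0.00914 to 0.273) and 2 in Nr1h3fl/fl WT KCs.

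**Figure D2:**
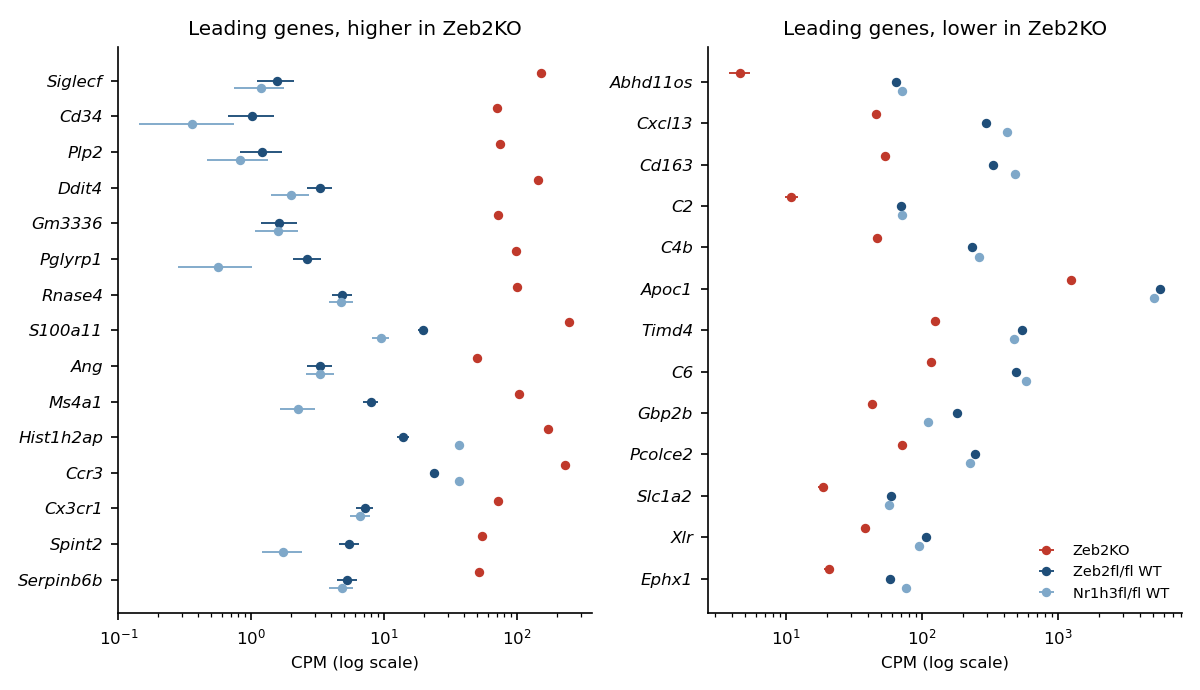
Levels (x axis, CPM, log scale) of leading genes higher (left) and lower (right) in Zeb2KO, in the Zeb2KO (red), Zeb2fl/fl WT (dark blue) and Nr1h3fl/fl WT (light blue) libraries, with exact Poisson 95% intervals that cover counting error only. In every gene shown both WT libraries lie on the same side of the Zeb2KO library, which the rule for choosing them required.

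ZEB proteins are known to bind the hexamer CACCTG, which reads CAGGTG on the other strand. The promoters of the leading genes were searched for it because ZEB2 is known to repress genes through such sites. A promoter is here the 300 bases from 250 before to 50 after a RefSeq gene start (GRCm38.p6), and 22 of the 30 leading genes had 1 or more. The hexamer was found in 3 of 13 windows (23.1%) of the higher genes and 1 of 10 windows (10%) of the lower genes, against 6640 of 32851 windows (20.2%) of all genes. With so few windows, no difference from all promoters can be read from these shares. Shown are the promoters of Siglecf (chr7:43351091-43351390, plus strand) and Cd163 (chr6:124304401-124304700, plus strand), the genes of the highest ratio and of a scavenger receptor among the lowest, and those of Pglyrp1 (chr7:18884440-18884739, plus strand) and Spint2 (chr7:29281928-29282227, minus strand), which hold the hexamer. Each is written 5′ to 3′ on the strand of its gene, with the hexamer in capitals.
Siglecf: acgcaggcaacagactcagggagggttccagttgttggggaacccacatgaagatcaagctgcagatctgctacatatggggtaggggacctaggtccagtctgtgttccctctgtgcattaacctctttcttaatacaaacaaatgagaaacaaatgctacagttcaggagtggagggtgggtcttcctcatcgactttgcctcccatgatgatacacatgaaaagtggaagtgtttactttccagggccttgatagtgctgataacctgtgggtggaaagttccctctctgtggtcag
Pglyrp1: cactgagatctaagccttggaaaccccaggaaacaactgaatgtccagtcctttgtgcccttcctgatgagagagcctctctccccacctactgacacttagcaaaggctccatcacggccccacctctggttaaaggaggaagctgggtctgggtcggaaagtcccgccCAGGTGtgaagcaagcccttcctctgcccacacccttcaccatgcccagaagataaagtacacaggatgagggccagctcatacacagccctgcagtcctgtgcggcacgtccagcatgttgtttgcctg
Spint2: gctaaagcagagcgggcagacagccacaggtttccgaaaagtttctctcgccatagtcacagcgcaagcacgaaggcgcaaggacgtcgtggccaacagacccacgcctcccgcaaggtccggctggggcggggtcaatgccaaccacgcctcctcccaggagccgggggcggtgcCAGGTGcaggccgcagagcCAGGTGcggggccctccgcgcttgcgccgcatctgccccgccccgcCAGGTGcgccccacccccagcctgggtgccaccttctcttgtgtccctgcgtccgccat
Cd163: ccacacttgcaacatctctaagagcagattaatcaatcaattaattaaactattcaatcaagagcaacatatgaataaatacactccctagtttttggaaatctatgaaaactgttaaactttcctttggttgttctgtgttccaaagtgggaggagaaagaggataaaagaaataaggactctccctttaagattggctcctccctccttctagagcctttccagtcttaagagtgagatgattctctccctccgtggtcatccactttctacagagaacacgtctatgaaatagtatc
Spint2 held 3 copies, Pglyrp1 1 copy, and Siglecf and Cd163 none in these windows. A match is not a binding site, and no binding was measured here.

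The leading genes lower in Zeb2KO included Abhd11os, Cxcl13, Cd163, C2, C4b, Apoc1, Timd4, C6, Gbp2b, Pcolce2, Slc1a2, Xlr and Ephx1. Timd4 (chromosome 11, 46810800 to 46844332, plus strand), the receptor with which KCs take up apoptotic cells, stood at 125 CPM (121 to 129) in Zeb2KO, 544 CPM (535 to 553) in Zeb2fl/fl WT and 478.5 CPM in Nr1h3fl/fl WT KCs, a log2 ratio of -2.11. Cd163 (chromosome 6, 124304656 to 124330527, plus strand), the scavenger receptor for haemoglobin bound to haptoglobin, stood at 53.8, 332 and 487 CPM, a ratio of -2.61. Cxcl13, the chemokine that attracts B cells, stood at 45.5, 297 and 420 CPM, a ratio of -2.68. Both WT libraries lay above Zeb2KO in each case, and Nr1h3fl/fl WT was the higher of the 2 for Cd163 and Cxcl13. Abhd11os had the lowest ratio of the leading genes, from which haemoglobin genes were left out, at -3.55, but lies opposite Abhd11 and overlaps it, so its level is uncertain.

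The KC signature, a list of 35 genes described for KCs, had the highest number of genes called lower among the lists. Not all of its genes are particular to KCs. Xlr stood at 106 CPM in Zeb2fl/fl WT KCs and 104 CPM in WT microglia. C6 stood at 491 CPM in Zeb2fl/fl WT KCs and 450 CPM in WT spleen macs. All 35 reached 20 CPM, 9 were called lower (25.7% against 1.07% of all genes), 1 was called higher, and the median log2 ratio was -0.60 against 0.03 for all genes. Between the WT libraries 0 of the 35 were called and the median was 0.19. The 9 lower genes were Cxcl13, Apoc1, Timd4, C6, Pcolce2, Xlr, Folr2, Tmem26 and Fabp7. Apoc1, an apolipoprotein, was the most abundant of them, at 1249, 5657 and 5072 CPM. Folr2, the folate receptor of resident macs, stood at 677, 1721 and 1521 CPM, a ratio of -1.34. Of the whole list, 27 genes lay below 0 and 8 above 0, and between the WT libraries 13 lay below and 22 above 0.

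Other signature genes stayed within 2-fold of Zeb2fl/fl WT in the sum over all Zeb2KO KCs. Vsig4, the complement receptor of KCs, stood at 1692, 3200 and 3111 CPM, a log2 ratio of -0.92, and Cdh5, at 225, 383 and 521 CPM, had a ratio of -0.76. Marco, a scavenger receptor, stood at 422, 339 and 653 CPM, and Slc40a1, the iron exporter ferroportin, at 1961, 2144 and 2802 CPM. For Marco and Slc40a1 the WT libraries differed more from each other than Zeb2KO did from Zeb2fl/fl WT. The study reports Cdh5 as lost without Zeb2. In Zeb2KO KCs with a Siglecf UMI, Vsig4 stood at 1376 CPM and Cdh5 at 144 CPM, against 1962 and 295 CPM in the others. Slc40a1 was alike in both, at 1975 and 1950 CPM. The member called higher was Cd207, the lectin langerin, at 589.5, 219 and 238 CPM, a ratio of 1.42. Without cells with UMIs of other cell types the list again had 9 genes called lower and 1 higher, with a median of -0.52. The choice of this list was made with results of these data known.

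**Figure D3:**
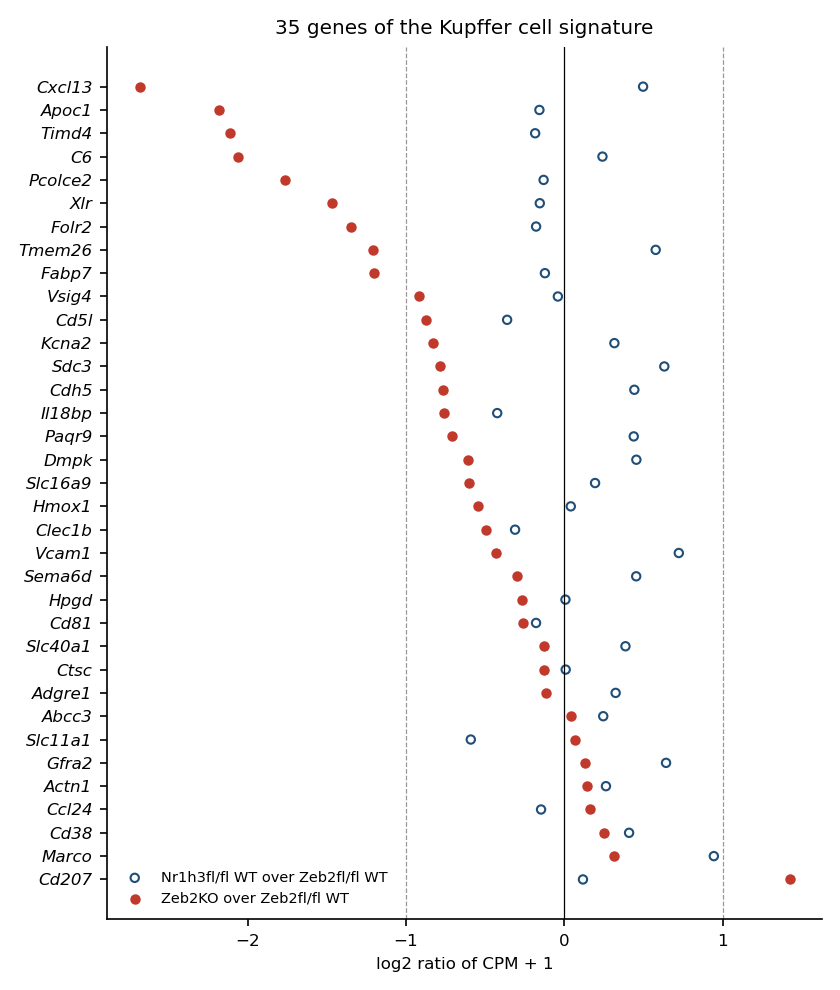
Log2 ratio of CPM + 1 (x axis) for each of the 35 genes of the KC signature, as Zeb2KO over Zeb2fl/fl WT (filled red) and Nr1h3fl/fl WT over Zeb2fl/fl WT (open blue); dashed lines mark 2-fold. Red points run from -2.68 for Cxcl13 to 1.42 for Cd207 with 27 of 35 below 0, whereas all open points lie within 2-fold and 22 of 35 above 0.

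Of 20 genes of at least 20 CPM on the complement list, 5 were called lower (25%, against 1.07% of all genes) and 1 higher (5%, against 3.64%), with a median log2 ratio of -0.20, against 0 lower and 1 higher of 17 between the WT libraries. Among the lower genes were several that encode secreted components. C2 stood at 10.9, 70.3 and 71.4 CPM, C4b at 46.6, 235 and 261 CPM, the terminal component C6 at 117, 491 and 581 CPM, and Cfb at 20.3, 50.4 and 29.8 CPM. For Cfb the Nr1h3fl/fl WT level was near that of Zeb2KO, and the log2 ratio over that library was -0.53. C1qa, C1qb and C1qc, which chose the cells, had ratios of -0.34, -0.22 and -0.31. C1qa and C1qb count towards this list and its median. The member called higher was Itgax (CD11c), a subunit of a complement receptor, at 32.0, 2.87 and 2.04 CPM, a ratio of 3.09. C2 overlaps another gene of its strand, and C4b has a near-identical copy, so their levels are uncertain.

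Of 21 scavenger receptors of at least 20 CPM, Cd163 was called lower (4.76%, against 1.07% of all genes) and Cd207 higher (4.76%, against 3.64%), and the median was -0.05. Of 12 efferocytosis genes, Timd4 and Cd300ld were called lower (16.7%, against 1.07%), the latter a receptor of the CD300 family at 183, 448 and 507 CPM, and the median was -0.35 against 0.22 between the WT libraries. Axl, a receptor tyrosine kinase for apoptotic cells, stood at 398, 544 and 769 CPM, within 2-fold of either WT library. Of 14 genes of haem and iron handling, Cd163 was called lower (7.14%, against 1.07%) and none higher, and the ferritin gene Fth1 had a ratio of -0.20. The numbers were 2 higher and 2 lower scavenger receptors, and 3 lower efferocytosis genes, without cells with UMIs of other cell types.

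The chemokine receptors held several higher genes. Of 22 chemokine and growth factor receptors of at least 20 CPM, 5 were called higher (22.7% against 3.64% of all genes) and 0 lower, with a median log2 ratio of 0.24. They were Ccr3, Cx3cr1, Ccr2, Ccr1 and Eng. Cx3cr1, the fractalkine receptor of microglia and monocytes, stood at 71.6 CPM (68.5 to 74.7), 7.14 CPM (6.16 to 8.23) and 6.57 CPM (5.49 to 7.81), a ratio of 3.16, although it overlaps other genes on both strands and its level is uncertain. Ccr2, the receptor with which monocytes leave the bone marrow, stood at 58.8, 8.12 and 4.59 CPM, a ratio of 2.71. The WT levels were close together for Cx3cr1 and differed less from each other than from Zeb2KO for Ccr2. Eng is also a liver endothelial marker, and without cells with UMIs of other cell types 3 genes of the list were called higher. Csf1r, the receptor for the growth factor of macs, had a ratio of -0.43.

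Genes of monocytes and of recently arrived macs did not shift together. Of 10 such genes of at least 20 CPM, Cx3cr1 and Ccr2 were called higher (20%, against 3.64% of all genes) and Fn1 lower (10%, against 1.07%), and the median was -0.51. Plac8, a gene of blood monocytes, stood at 410, 573 and 607 CPM, and Itgal at 309, 348 and 640 CPM. Both were within 2-fold of Zeb2fl/fl WT. Fn1, which encodes fibronectin, stood at 100.1, 227 and 1.68 CPM, so its ratio was -1.17 over Zeb2fl/fl WT and 5.24 over Nr1h3fl/fl WT.

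Fn1 belongs with genes whose direction turned with the control. Slpi, a protease inhibitor, stood at 50.4, 261 and 0.204 CPM, Alox15, a lipoxygenase of peritoneal macs and eosinophils, at 42.7, 94.6 and 0.0510 CPM, and Saa3, an acute-phase protein, was listed at 93.1, 192 and 0 CPM. All 4 genes were called lower over Zeb2fl/fl WT and yet were nearly absent from Nr1h3fl/fl WT, where 1 UMI of Alox15 and none of Saa3 was counted. They were counted in few cells: after thinning, Slpi was found in 1.57% of Zeb2KO, 3.39% of Zeb2fl/fl WT and 0.0568% of Nr1h3fl/fl WT KCs. Without cells with UMIs of other cell types, a filter that uses these genes, their ratios over Zeb2fl/fl WT were -0.94 for Slpi, -0.52 for Fn1, -0.34 for Saa3 and -0.13 for Alox15. Of 9 acute-phase and antimicrobial genes of at least 20 CPM, Slpi, Saa3 and Cfb were called lower (33.3%, against 1.07% of all genes). Mmp13, a collagenase, was called higher (11.1%, against 3.64%). Between the WT libraries 3 of 8 were lower in Nr1h3fl/fl WT, against 0.913% of all genes. Without cells with UMIs of other cell types 1 of 6 was called in each direction.

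Chemokines were called in both directions. Of 16 chemokine and cytokine genes of at least 20 CPM, Ccl3, Ccl4 and Ltb were called higher (18.8%, against 3.64% of all genes) and Cxcl13 lower (6.25%, against 1.07%). Ccl3 and Ccl4, which attract monocytes and T cells, stood at 182, 35.5 and 31.0 CPM and at 184, 37.4 and 39.8 CPM, with ratios of 2.32 and 2.27. The WT libraries were alike for both. Ccl24, the eotaxin that KCs make, stood at 1082, 969 and 875 CPM, and Ccl6 at 460, 796 and 1067 CPM. Neither passed 2-fold over Zeb2fl/fl WT, while Ccl6 did over Nr1h3fl/fl WT, at -1.21.

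Of 26 Siglec, Ms4a and paired receptors of at least 20 CPM, 6 were called higher (23.1% against 3.64% of all genes) and 1 lower (3.85%, against 1.07%). Between the WT libraries 0 of 24 were called. The higher genes were Siglecf, Ms4a1, Trem2, Sirpb1c, Cd300lf and Cd33. Trem2, the lipid-sensing receptor of lipid-associated macs, stood at 170 CPM (166 to 175), 41.5 CPM (39.1 to 44.1) and 34.9 CPM (32.3 to 37.6), a ratio of 2.01. Sirpb1c has near-identical relatives, so its value is uncertain, and Cd33 was within 2-fold of Nr1h3fl/fl WT, at 0.39. The lower gene was Ms4a8a, at 42.6, 111 and 99.1 CPM. Fcgr2b and Fcrl1 were called higher among 7 Fc receptors (28.6%, against 3.64%). Fcgr2b is also a liver endothelial marker, and its ratio of 1.18 was 0.76 without cells with UMIs of other cell types.

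Lipid genes differed between individual members, not as a list. Nr1h3, which encodes the oxysterol receptor LXRα, stood at 260.0 CPM in Zeb2KO, 386 CPM in Zeb2fl/fl WT and 477 CPM in Nr1h3fl/fl WT KCs, a ratio of -0.57 that did not reach 2-fold. Of 19 LXR targets and sterol efflux genes, Apoc1 was called lower (5.26%, against 1.07% of all genes) and Lpl higher (5.26%, against 3.64%), and the median was 0.06. Lpl, lipoprotein lipase, stood at 1198 CPM (1185 to 1210), 394 CPM (387 to 402) and 676 CPM (664 to 687), a ratio of 1.60 over Zeb2fl/fl WT and 0.83 over Nr1h3fl/fl WT. Its call thus depends on the control. Apoe, the neighbour of Apoc1 and the most abundant gene of the list, stood at 24831, 26252 and 12843 CPM, so here the WT libraries differed by a log2 ratio of -1.03 while that of Zeb2KO over Zeb2fl/fl WT was -0.08. Of 13 genes of lipid uptake and storage, 0 were called. Without cells with UMIs of other cell types 1 of 13 was higher, where 3.46% of all genes were.

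Of 30 lineage transcription factors of at least 20 CPM, 4 were called higher (13.3%, against 3.64% of all genes) and 0 lower. Without cells with UMIs of other cell types 7 of 28 were higher, where 3.46% of all genes were. The 4 called with all KCs were Id1, Id2, Nr4a1 and Bhlhe40. Id1 and Id2, inhibitors of basic helix-loop-helix factors and targets of BMP signalling, stood at 382, 116 and 80.7 CPM and at 859.5, 349 and 263 CPM, with ratios of 1.71 and 1.30. Id3, which KCs are known to need, had a ratio of 0.94. Spi1, which encodes PU.1, stood at 648, 647 and 503 CPM, and Spic, a factor of iron-handling macs, had a ratio of 0.18, so both stayed within 2-fold. Zeb1, the relative of Zeb2, stood at 15.9, 7.44 and 5.71 CPM and did not reach 20 CPM.

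Of 19 genes of S and G2M phase of at least 20 CPM, 11 were called higher (57.9% against 3.64% of all genes) and 0 lower, with a median of 1.09. Between the WT libraries 0 of 13 were called and the median was 0.28. Ube2c stood at 52.7, 11.1 and 18 CPM, Birc5 at 51.2, 13.6 and 16.5 CPM, and Mki67 at 32.0, 10.8 and 18.3 CPM. Mki67 was within 2-fold of Nr1h3fl/fl WT. Within Zeb2KO, Ube2c stood at 33.8 CPM in KCs with a Siglecf UMI and at 68.9 CPM in the others. Birc5 stood at 30.7 and 68.7 CPM in the same order. From Ki-67 staining, the study reports more proliferation in SiglecF- KCs of the CRE mice and restricted proliferation in SiglecF+ KCs. The library holds both. Cells with at least 3 UMIs of 11 genes of the list numbered 440 (9.76%) in Zeb2KO, 129 (2.83%) in Zeb2fl/fl WT and 172 (4.48%) in Nr1h3fl/fl WT. The deeper Zeb2KO cells pass such a limit more readily, so the share was also taken with every cell thinned to 2000 UMIs. It was then 5.44% (4.79% to 6.14%) in Zeb2KO, 1.49% (1.15% to 1.89%) in Zeb2fl/fl WT and 2.81% (2.29% to 3.41%) in Nr1h3fl/fl WT KCs. Without the cells that passed before thinning, 265 genes were called in all, in place of 259.

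Of 11 CDK inhibitors and cyclins, 4 were called higher (36.4%, against 3.64% of all genes) and 0 lower. Ccnd2, a cyclin that drives entry into the cycle, stood at 82.5, 18.4 and 15.8 CPM, a ratio of 2.10. Cdkn1a, the inhibitor p21, stood at 49.5, 15.1 and 9.83 CPM, a ratio of 1.64. Both a cyclin and an inhibitor were thus higher. Btg2 and Cdkn2c were the others, and Cdkn2c was within 2-fold of Nr1h3fl/fl WT, at 0.81.

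Of 26 actin and cytoskeleton genes, 4 were called higher (15.4%, against 3.64% of all genes), namely Plp2, Lsp1, Gsn and Coro1a. Lsp1, an actin-binding protein of leukocytes, stood at 330.3, 38.8 and 14.4 CPM, a ratio of 3.06. Gsn, the actin-severing gelsolin, stood at 88.4, 12.0 and 12.9 CPM, and Coro1a at 528, 133 and 93.8 CPM. B cells also express Lsp1 and Coro1a, and 40.8% of 98 thinned Zeb2KO barcodes under the C1q limit held a Lsp1 UMI. Without cells with UMIs of other cell types, the Lsp1 ratio was 3.87. Of 17 S100, annexin and galectin genes, S100a11, Lgals1 and Anxa2 were called higher (17.6%, against the same 3.64%), of which Anxa2 had a ratio of 0.75 over Nr1h3fl/fl WT and so was not called over that control. Of 21 integrin and adhesion genes, Itgax, Cd82, Cd9 and Itgb7 were called higher (19.0%, against 3.64%). Between the WT libraries 3 of 20 were lower in Nr1h3fl/fl WT, against 0.913% of all genes. Cd9 and Itgb7 differed there by log2 ratios of -1.95 and -1.63, more than the 1.12 and 1.10 of Zeb2KO over Zeb2fl/fl WT. Without cells with UMIs of other cell types, Cd9 stood at 75.9, 9.25 and 8.76 CPM, a ratio of 2.91 over Zeb2fl/fl WT. By that filter 5 of 21 genes of the list were called higher.

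A list of genes of epithelial-to-mesenchymal transition, made up of epithelial genes and the mesenchymal Cdh2 and Vim, was mostly too low to compare. Of 28 genes, 3 reached 20 CPM, and 1 of them was called higher (33.3%, against 3.64% of all genes). It was Spint2, a protease inhibitor of epithelia, at 54.7 CPM (52.0 to 57.4), 5.44 CPM (4.58 to 6.40) and 1.73 CPM (1.20 to 2.42), a ratio of 3.11. The epithelial Jup had a ratio of 0.49 and the mesenchymal Vim one of -0.36. Of 19 genes of TGF-β, BMP and SMAD signalling, Id1, Id2, Bmp2, Tgfbi and Eng were called higher (26.3%, against 3.64% of all genes). Bmp2 and Eng are liver endothelial markers, and without cells with UMIs of other cell types the ratio of Bmp2 was 0.02 and 3 of 17 genes were called higher.

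Of 26 genes of the interleukin-1 family and cell death, Il1r2, Bid and Bcl2a1d were called higher (11.5%, against 3.64% of all genes) and 0 lower, with a median of 0.07. Il1b stood at 286, 170 and 183 CPM, Il1a at 73.5, 50.5 and 44.0 CPM and Ripk3, a kinase of necroptosis, at 82.9, 50.8 and 34.4 CPM. Their ratios over Zeb2fl/fl WT were 0.75, 0.53 and 0.695, all under 2-fold, while Ripk3 over Nr1h3fl/fl WT had a ratio of 1.24. Mlkl, which acts after Ripk3, had a ratio of -0.25, and Bcl2a1d has near-identical copies, so its value is uncertain. Its ratio of 1.02 was 0.94 without cells with UMIs of other cell types, which left 2 genes called.

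Several lists held few or no called genes. None was called of 30 lysosomal genes, of 40 genes of oxidative phosphorylation, of 23 genes of oxidative stress and glutathione, of 16 Toll-like and innate sensors, of 12 genes of MHC class I presentation or of 2 genes of sterol and fatty acid synthesis. The medians of the larger of these lists lay between -0.22 for lysosomal genes and 0.03 for MHC class I. Of 81 cytosolic ribosomal protein genes 0 were called, with a median of 0.27. Of 29 interferon-stimulated genes, Ifi205 was called lower (3.45%, against 1.07% of all genes), and 1 gene was also higher without cells with UMIs of other cell types. Of 11 glycolysis genes Pgk1 and of 11 MHC class II genes H2-Oa was called higher (9.09% each, against 3.64%), and of 11 eicosanoid genes Ephx1 and Alox15 were called lower (18.2%, against 1.07%). The numbers were 2 higher MHC class II genes and 1 lower of 10 eicosanoid genes without cells with UMIs of other cell types. Between the WT libraries 5 of 9 MHC class II genes were lower in Nr1h3fl/fl WT, against 0.913% of all genes.

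**Figure D4:**
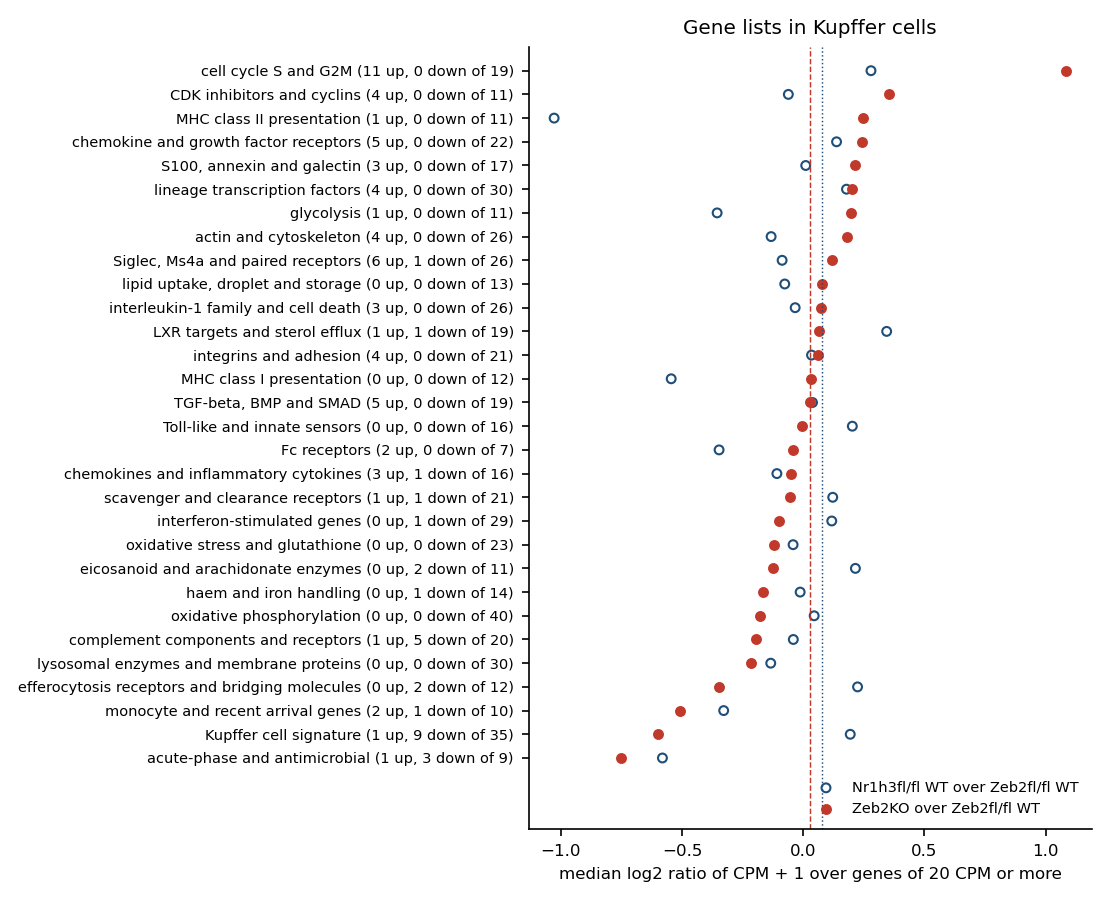
Median log2 ratio (x axis) of each gene list with at least 5 genes of at least 20 CPM, as Zeb2KO over Zeb2fl/fl WT (filled red) and Nr1h3fl/fl WT over Zeb2fl/fl WT (open blue), with the numbers called higher and lower in Zeb2KO beside each name. The dashed red line at 0.03 and the dotted blue line at 0.08 are the medians of all genes; the cell cycle list lies at 1.09 and the KC signature at -0.60, while MHC class II lies at -1.03 between the WT libraries.

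Markers of other cells moved as follows. Of 15 liver endothelial markers of at least 20 CPM, 12 were called higher in Zeb2KO (80%, against 3.64% of all genes) and 0 lower. Between the WT libraries 7 of 13 of these markers were lower in Nr1h3fl/fl WT, against 0.913% of all genes. Their summed level was 1722, 824.5 and 414 CPM. Without cells with UMIs of other cell types, 0 of 6 were called higher and 1 lower. That filter uses 5 liver endothelial markers, so the fall was in part set by it. Of 4 haemoglobin genes on the erythroid list all 4 were lower in Zeb2KO (100%, against 1.07% of all genes), with Hbb-bs at 2.02, 82.0 and 282 CPM. All 4 were higher in Nr1h3fl/fl WT than in Zeb2fl/fl WT, against 0.555% of all genes. The hepatocyte list summed to 1080, 1205 and 1040.0 CPM with 0 of 4 called, and none of 13 T and NK cell markers reached 20 CPM. Of 4 dendritic cell, 1 neutrophil, 1 plasma cell and 13 macrophage markers of at least 20 CPM, 0 were called. The macrophage markers include C1qa, C1qb and C1qc, which chose the cells. Ecm1, the 1 stellate cell or fibroblast marker of that level, was lower, with a ratio of -1.55 over Zeb2fl/fl WT and -0.57 over Nr1h3fl/fl WT. Of 22 immediate early and heat shock genes, which can be induced while tissue is dissociated, 6 were higher in Zeb2KO (27.3%, against 3.64% of all genes), and 5 were lower in Nr1h3fl/fl WT than in Zeb2fl/fl WT, where 0.913% of all genes were. In Zeb2KO 9 of 22 were higher without cells with UMIs of other cell types, where 3.46% of all genes were. Jun stood at 433, 185 and 73.5 CPM. Id1, Nr4a1, Btg2 and Ccl3 followed the same order of libraries, and the part of this list in their levels was not tested.

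Siglecf and Ccr3 are eosinophil genes and Ms4a1 is a B cell gene. Of 4 eosinophil markers of at least 20 CPM, Siglecf and Ccr3 were called higher (50%, against 3.64% of all genes) and Alox15 lower (25%, against 1.07%), a call that was lost without cells with UMIs of other cell types, and the whole list summed to 663, 425 and 312 CPM. Of the 5 defining markers, Ccr3 alone reached 20 CPM, and 2 of the others were at 0 in Zeb2KO and in Zeb2fl/fl WT. Of 4 B cell markers of at least 20 CPM, Ms4a1 was called higher (25%, against 3.64% of all genes) and 0 lower. The B cell list summed to 426, 318 and 327 CPM. Of the defining B cell markers, Cd79a stood at 19.3, 21.3 and 7.13 CPM and Cd79b at 44.2, 42.3 and 39.2 CPM, so both lay within 2-fold between Zeb2KO and Zeb2fl/fl WT. In KCs with no UMI of 9 other B cell markers, Ms4a1 stood at 103 CPM (98.3 to 107) in Zeb2KO, 0.529 CPM (0.254 to 0.972) in Zeb2fl/fl WT and 0.148 CPM (0.0179 to 0.534) in Nr1h3fl/fl WT. The Zeb2KO level was thus much the same without cells that held B cell UMIs, while the WT levels were lower.

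To give the share of cells with a UMI at an equal depth, every KC was thinned to 2000 UMIs. This left out 41 Zeb2KO, 249 Zeb2fl/fl WT and 318 Nr1h3fl/fl WT KCs. A Siglecf UMI was found in 22.4% (21.2% to 23.6%) of Zeb2KO, 0.325% (0.178% to 0.545%) of Zeb2fl/fl WT and 0.199% (0.0799% to 0.409%) of Nr1h3fl/fl WT KCs. Before thinning the shares were 43.1%, 0.878% and 0.573%. Among barcodes under the C1q limit, whose median was 2665 UMIs in Zeb2KO and 2532 in Zeb2fl/fl WT, 1 of 98 thinned Zeb2KO barcodes held Siglecf (1.02%, 0.0258% to 5.55%) and 0 of 68 in Zeb2fl/fl WT, which allows a share of up to 5.28%. The share in Zeb2KO KCs thus lay above that in the barcodes with little C1q.

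Ms4a1 was found in 15.9% (14.8% to 17.0%), 1.14% (0.843% to 1.5%) and 0.284% (0.136% to 0.521%) of thinned KCs, and in 30.5%, 1.91% and 0.573% before thinning. Barcodes under the C1q limit held it more often, at 38.8% of 98 in Zeb2KO and 50% of 68 in Zeb2fl/fl WT, and 42.9% and 63.2% of the same barcodes held the B cell gene Cd79b. They are therefore no measure of free Ms4a1 RNA. Cd79b itself was found in 7.47% of Zeb2KO and 6.71% of Zeb2fl/fl WT KCs after thinning. Timd4 was found in 18.8% (17.7% to 20%) of Zeb2KO KCs, 62.7% (61.3% to 64.2%) of Zeb2fl/fl WT and 58.8% (57.1% to 60.4%) of Nr1h3fl/fl WT. Cd163 was found in 10.0%, 43.7% and 53.3%, and Apoc1 in 53.2%, 97.3% and 98.0%. The lower genes were thus met in fewer Zeb2KO cells, and none of them was at 0 there.

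**Figure D5:**
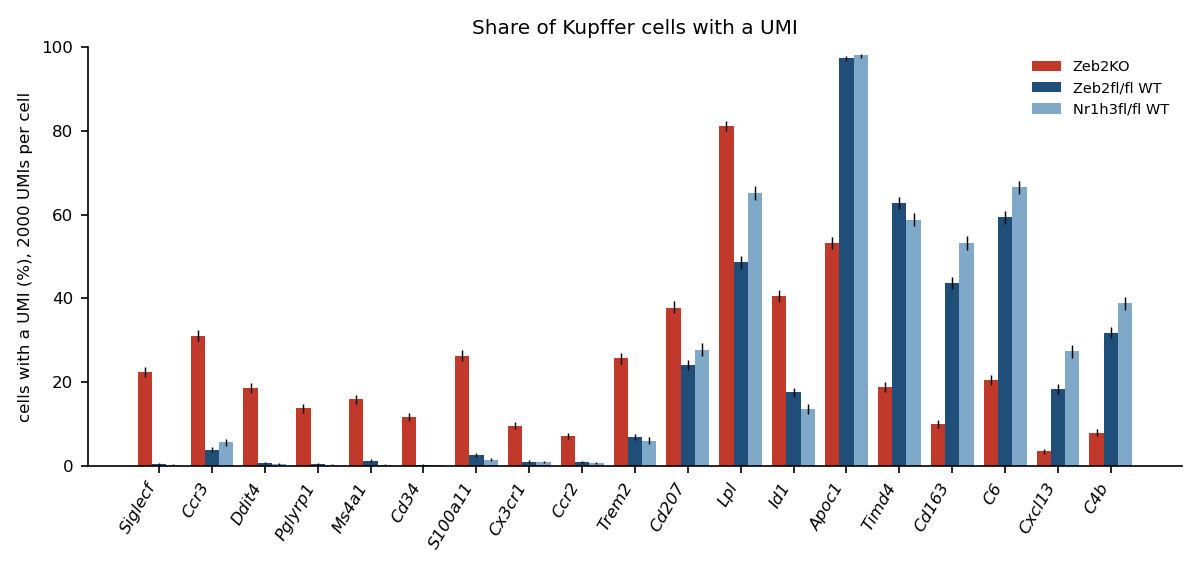
Share of KCs with at least 1 UMI of each gene (y axis, percent) after each cell was thinned to 2000 UMIs, in Zeb2KO (red), Zeb2fl/fl WT (dark blue) and Nr1h3fl/fl WT (light blue), with exact binomial 95% intervals over cells. Higher genes such as Siglecf were met in 22.4% of Zeb2KO KCs and under 1% of WT KCs, and lower genes such as Timd4 in 18.8% against 62.7% and 58.8%.

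The 1943 Zeb2KO KCs with a Siglecf UMI were set against the other Zeb2KO KCs, as a description only, since the cells were chosen by a measured value and deeper cells are more likely to hold a UMI. Zeb2 stood at 1042 CPM in KCs with and 509.8 CPM in KCs without a Siglecf UMI, Ms4a1 at 175 and 42.2 CPM, Ddit4 at 244 and 57.0 CPM, and Timd4 at 65.8 and 176 CPM. Zeb2KO KCs without a Siglecf UMI also stood below Zeb2fl/fl WT in Timd4. Cx3cr1 lay the other way, at 34.5 and 103 CPM, as did Birc5, at 30.7 and 68.7 CPM.

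The leading genes were followed in the other tissues, where Zeb2KO and WT macs were compared by the same rule with 1 library a side. Cells had at least 5 C1q UMIs in brain, colon and spleen, and all barcodes were used in lung. By the methods, Itgax-cre was used in lung and Fcgr1-cre in brain, colon and spleen, with Zeb2fl/fl littermates as controls. Alveolar macs were sorted as SiglecF+ and colonic and spleen macs as SiglecF-. Driver, sort and tissue thus cannot be told apart. In spleen 10 of the 15 higher genes reached 20 CPM, of which 6 were called higher and 2 lower, against 2.18% of all genes higher and 0.911% lower. Of the lower genes, 9 reached 20 CPM, and 5 were called lower and 0 higher. In brain 3 of 8 were called higher and 1 lower (4.34% and 4.05% of all genes), and 1 of 3 lower genes was called lower. In lung 4 of 8 were called higher and 0 lower (4.31% and 7.28%), and of 2 lower genes 1 was called higher. In colon 2 of 9 were called higher (1.01%) and 2 of 8 lower (0.531%), with 0 called the other way.

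Single genes had different patterns among tissues. Cd163 stood at 25.5 CPM in Zeb2KO against 375.5 CPM in WT spleen macs and at 28.4 against 80.2 CPM in colonic macs. Siglecf stood at 409 against 30.3 CPM in microglia and at 69.8 against 127 CPM in alveolar macs. The alveolar macs were sorted on SiglecF protein, so their Siglecf levels are not independent of the sort. Timd4 stood at 57.1 against 66.5 CPM in spleen and at 19.8 against 28.9 CPM in colon, so it was within 2-fold there. Pglyrp1 stood at 46.5 against 2.52 CPM in spleen, and Cd34 at 210 against 191 CPM in microglia.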

How the data were processed

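Single-cell RNA-seq of mouse macs was deposited by the authors as raw UMI counts per gene and barcode, made with Cell Ranger against mm10, for 27998 genes in 11 libraries. From these counts, KCs were chosen by the rule above, UMIs were summed per library and CPM was compared as log2(CPM + 1), with no test because each group was 1 library. Levels of the named genes of at least 20 CPM had 95% Poisson intervals of at most 8.58% on either side (median 2.38%). For shares, each cell was thinned at random to 2000 UMIs. Doublets were not removed. The calculation recovered known fold changes in simulated data.

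The members and the 44 gene lists were chosen with earlier results of these data known, and 16 list genes did not match the tables. Named genes were the 15 highest and 15 lowest ratios among genes of at least 50 CPM called over both WT libraries, leaving out mitochondrial, ribosomal protein, Xist, Tsix, Y-linked, immunoglobulin, haemoglobin, hepatocyte-list and rule genes; in each biological list the 3 highest, 3 lowest and 2 most abundant genes; the 3 most abundant of each list of other cells; and a few set genes. Some genes that the rule names are not reported here. Slc40a1, Marco, Vsig4, Folr2, Mki67, Coro1a, Spic, Zeb1, Jun, Cd79a, Adgre1, Fcgr1 and Mertk were given levels outside this rule, after their values were seen; the last 4 are markers of the cell type check. X-linked genes such as Plp2 and Xlr were kept.

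Alternatives changed the CPM floor, the pseudocount, the scaling (TMM of edgeR 4.0.16 in R 4.3.3, or the median of ratios), the cell filters, the depth and the control library. Coordinates are from the GENCODE annotation of mm10. Python 3.11.15, numpy 2.4.6, pandas 2.3.3, scipy 1.17.1 and matplotlib 3.10.9 were used.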

Additional observations from a re-analysis of the deposited data

Results flagged for a closer look

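For 3 leading genes the ratio of Zeb2KO over WT was past 2-fold in opposite directions in liver and in another tissue. Each tissue had 1 library a side and its own sort, so the difference was not tested. Hist1h2ap, a histone gene with near-identical copies, had a log2 ratio of 3.54 in KCs and -1.07 in spleen macs. Cx3cr1 had a ratio of 3.16 in KCs, -1.66 in microglia and -1.67 in spleen macs. Apoc1 had a ratio of -2.18 in KCs and 2.32 in alveolar macs.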

How the results depend on the processing

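No paired analysis was possible because each group was 1 library, and for the same reason no replicate could be left out. The number of genes called between Zeb2KO and Zeb2fl/fl WT, 259 with 200 higher and 59 lower, moved most with the CPM floor, which sets how many genes are considered. It was 695 (541 higher, 154 lower) with no floor, 531 (414 higher, 117 lower) with a floor of 5 CPM and 145 (105 higher) with a floor of 50 CPM. Between the WT libraries the number was 82, and 213 and 43 with floors of 5 and 50 CPM. With Nr1h3fl/fl WT as the control, 465 genes were called, 193 of them lower, and 4 named genes turned direction, with log2 ratios of 5.38 for Alox15, 5.24 for Fn1, 5.42 for Slpi and 6.56 for Saa3, the last against a library without a UMI and so set by the 1 CPM added. The cause was not tested. Under the other settings tried (pseudocount, both other scalings, Clec4f limits, filters on cells, thinning and the filter added after seeing the data), the number lay between 208 and 265. Without replicate libraries, depth sets only the counting error.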
